A study of Mus musculus with 4 samples.

Results

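A set of 10 genes that mark hepatic stellate cells and the myofibroblasts they turn into were followed in bulk mRNA-seq of mouse liver. The genes were taken by name, with Lrat and Reln as markers of the quiescent cell. Acta2, Tagln, Des, Vim, Pdgfra, Pdgfrb, Ngfr and Rgs5 were grouped as activated or contractile markers. The set thus holds 2 members called quiescent and 8 called activated below. All 10 were among the 13903 genes of the deposited table, and all 10 passed the filter of an average of 1 CPM or more over the libraries (CPM, the read count scaled to a library total of 1000000), which 12989 genes passed. Every mouse carried a floxed Ogt gene on the C57BL/6J background and was fed the choline-deficient, ethionine-supplemented (CDE) diet, a liver injury diet. Mice labelled OGT-KO had been given AAV8-TBG-CRE, a virus that carries the Cre recombinase behind the TBG promoter, and mice labelled control had been given AAV8-TBG-eGFP, the same vector with a green fluorescent protein. The livers were collected with no recovery from the diet or after 7 day recovery. Age, sex and the length of the diet were not given in the sources used here. The TBG promoter is active in hepatocytes, so Cre was directed at another cell type than the one these genes mark. Each of the 4 conditions was 1 library of equally pooled RNA from 3 mice. There was therefore no replicate, and no difference below could be set against the spread between mice.

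Stellate cells lie between hepatocytes and the sinusoidal endothelium and store vitamin A as retinyl esters. In injured liver they lose this store, respond to PDGF, express smooth muscle actin and lay down collagen, and such cells are called myofibroblasts. Contractile and filament genes of this programme are shared with vascular smooth muscle and portal fibroblasts, and Rgs5 and Pdgfrb with pericytes, so that several members are not confined to stellate cells. Desmin is also made by quiescent stellate cells of rodents, so the activated group is not confined to the activated state.

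The libraries held between 19972699 and 22866431 reads on listed genes, and 3 reads, the least taken as detectable, corresponded to 0.131 to 0.150 CPM, a level that all 10 members passed in all 4 libraries. With no recovery, Ogt, the targeted gene, read 64.7 CPM under the control label and 55.3 CPM under the OGT-KO label. After 7 day recovery it read 55.7 CPM and 77.7 CPM, which goes against the label at that time. This direction turned with the scaling, since the log2 difference at 7 days was 0.47 in CPM, below the median of all genes, but -0.20 under median-ratio and -0.0053 under upper-quartile scaling. Values below are therefore given by label, and no difference is read as an effect of the loss of Ogt. The 100 highest genes of each library took 34.1% and 34.3% of its reads in the libraries labelled OGT-KO and 42.8% and 45.0% in those labelled control. In CPM, the median gene was higher under the OGT-KO label by 0.64 with no recovery and by 0.61 after 7 days on the log2 scale. Of the genes at least 2-fold apart, 87.9% and 90.3% were higher under the OGT-KO label, and the shares were 57.9% and 67.4% when libraries were scaled by the median ratio, which moved the median gene by -0.68 and -0.64. Upper-quartile scaling gave 70.4% and 77.0%. Differences of members are given without this median taken off, unless stated.

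A pair of promoter windows was chosen for display on the following grounds. The windows belong to the member with the largest ratio of CPM between the labels, Acta2, and to a quiescent member, Lrat. Both windows held a match to the CArG box, the element bound by serum response factor (SRF), which drives contractile genes. Each runs from 250 bases before to 50 bases after the gene start of the RefSeq annotation on GRCm38.p6, on the strand of the gene. Capitals mark the matches, in which 2 C, 6 A or T and 2 G bases were asked for on either strand. A mismatch was allowed at 1 of the 6 A or T bases only.
Acta2, chr19:34255324-34255623, minus strand: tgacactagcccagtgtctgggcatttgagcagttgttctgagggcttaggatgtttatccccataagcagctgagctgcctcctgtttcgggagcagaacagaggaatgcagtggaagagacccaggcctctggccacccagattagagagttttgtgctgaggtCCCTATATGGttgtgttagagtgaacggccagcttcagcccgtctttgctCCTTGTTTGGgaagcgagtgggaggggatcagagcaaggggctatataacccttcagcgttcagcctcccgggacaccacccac
Lrat, chr3:82903925-82904224, minus strand: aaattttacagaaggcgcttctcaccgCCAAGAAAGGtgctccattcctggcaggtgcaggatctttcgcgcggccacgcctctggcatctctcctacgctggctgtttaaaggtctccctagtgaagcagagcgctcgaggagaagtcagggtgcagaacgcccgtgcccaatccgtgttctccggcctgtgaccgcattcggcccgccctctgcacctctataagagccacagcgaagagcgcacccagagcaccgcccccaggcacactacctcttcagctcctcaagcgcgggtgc

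The Acta2 matches began at -84 and -34 relative to the gene start, and the Lrat match began at -223. Of 32851 promoter windows of this length in the table, 9.98% held such a match and 1.63% held one without a mismatch. Windows of 8 members were searched, and of these the 6 besides Acta2 and Lrat held no match of either kind. Tagln and Pdgfrb were not searched. Of the 8 windows searched, that of Vim alone held TATAAA, at -32, which was found in 13.6% of all windows. TGANTCA, the AP-1 element, was in none of these 8 windows and in 7.81% of all windows. These are descriptions of letters within the windows.

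At each time, all 10 members were at least 2-fold higher under the OGT-KO label than under the control label. Among all 12989 genes compared, 33.5% were so with no recovery and 32.7% after 7 days, and 28% at both times. No member was 2-fold lower, against 4.6% and 3.5% of all genes. The members' median difference was 2.68 with no recovery and 3.13 after 7 days. It was measured as the difference of log2(CPM + 1), which makes changes of weakly expressed genes look smaller. Less the median of all genes, Ngfr differed by 0.60 with no recovery, under 2-fold, and Lrat, the next lowest, by 1.11. After 7 days the lowest member was Lrat, at 1.80. In bulk tissue, more cells of a type and more RNA of these genes per cell cannot be told apart.

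**Figure D1:**
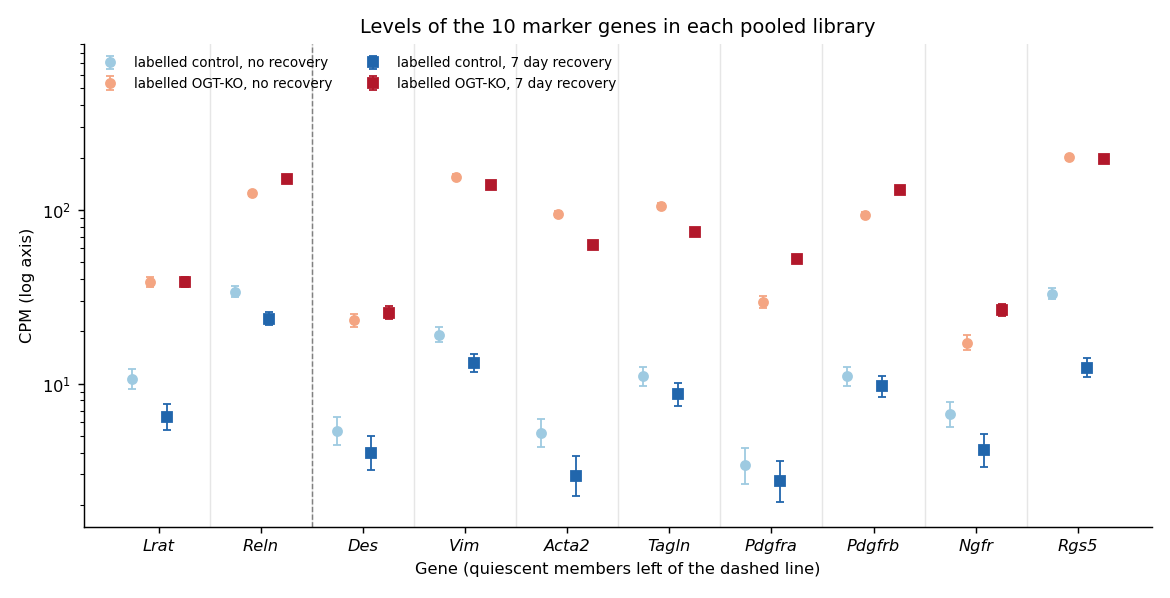
CPM of the 10 members (log axis) in each of the 4 pooled libraries, with 95% exact intervals that cover counting error only. In each gene both libraries labelled OGT-KO lie above both labelled control, from 17.2 CPM against 6.68 CPM for Ngfr with no recovery to 62.4 CPM against 2.95 CPM for Acta2 after 7 days.

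The contractile members were read first. Acta2 encodes alpha smooth muscle actin, the usual mark of a myofibroblast, and lies on the minus strand of chr19:34241090-34255590 (GRCm38), with 9 exons in its principal transcript. Under the control and the OGT-KO label it read 5.22 CPM and 94.3 CPM with no recovery, and 2.95 CPM and 62.4 CPM after 7 days. As a ratio of CPM, in which all folds of single genes below are given, this was 18.1-fold (95% counting interval 14.9 to 22.1) and 21.1-fold (16.3 to 27.9) higher, rank 95 and rank 107 among the 12989 genes compared. By these ratios no other member differed more between the labels at either time. After 7 days the interval of Acta2 overlapped those of Pdgfra (14.4 to 25.3) and Rgs5 (13.9 to 18.0). With a pseudocount of 10, Rgs5 differed most at that time, by 3.20 on the log2 scale against 2.48 for Acta2. Counts of Acta2 could take up few reads of its paralogs, since 0.353% of the 50-base windows of its transcript occur in another gene, Actg1 among them.

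Tagln encodes transgelin, an actin-binding protein of smooth muscle, on the minus strand of chr9:45929619-45936058. It read 11.0 CPM and 105.7 CPM with no recovery and 8.66 CPM and 74.0 CPM after 7 days, in the libraries labelled control and OGT-KO. The ratios were 9.60 (8.39 to 11.0) and 8.55 (7.31 to 10.1). Of its exonic bases, 62.4% overlap the antisense gene Gm48529, and whether counting used the strand is not given in the sources used here, so that reads of both genes may be mixed in the Tagln values. Within a library the ratio of Tagln to Acta2 reads was 2.11 and 2.93 in the libraries labelled control and 1.12 and 1.19 in those labelled OGT-KO.

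The intermediate filament members were Vim, which encodes vimentin of mesenchymal and many blood cells, and Des, which encodes desmin of muscle and stellate cells. Vim, on the plus strand of chr2:13573927-13582826, read 19.1 CPM and 155 CPM with no recovery and 13.2 CPM and 138 CPM after 7 days. Des, on the plus strand of chr1:75360329-75368579, read 5.36 CPM and 23.2 CPM with no recovery and 4.01 CPM and 25.6 CPM after 7 days. Vim was 8.12-fold and 10.5-fold higher under the OGT-KO label and Des 4.33-fold and 6.39-fold, and the 2 genes were thus not raised to the same degree. The ratio of Vim to Des reads was 3.56 and 3.29 in the libraries labelled control, and 6.68 and 5.39 in those labelled OGT-KO. Among other type III and IV intermediate filaments, Nes, nestin, read 4.99 CPM and 42.4 CPM with no recovery and 1.35 CPM and 31.6 CPM after 7 days, and Sync, syncoilin, 2.12 CPM and 1.71 CPM and then 2.00 CPM and 1.55 CPM.

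Pdgfra and Pdgfrb encode the receptors of platelet-derived growth factors, mitogens of stellate cells. Pdgfra, at chr5:75152292-75198215 on the plus strand, read 3.39 CPM and 29.4 CPM with no recovery and 2.75 CPM and 52.2 CPM after 7 days. Pdgfrb, at chr18:61045150-61085061 on the plus strand, read 11.0 CPM and 93.1 CPM with no recovery and 9.66 CPM and 130 CPM after 7 days. Both receptors were thus lowest under the control label and highest under the OGT-KO label in the 7 day libraries. Pdgfra was 8.69-fold (6.81 to 11.2) and then 18.9-fold (14.4 to 25.3) higher under the OGT-KO label, and Pdgfrb 8.45-fold and then 13.5-fold.

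Ngfr encodes the low-affinity neurotrophin receptor p75, found on activated stellate cells and nerves, on the minus strand of chr11:95568818-95587735. It had the smallest label difference of the members with no recovery, with 6.68 CPM against 17.2 CPM (2.57-fold, 2.12 to 3.14), and read 4.16 CPM against 26.5 CPM after 7 days (6.39-fold, 5.07 to 8.14). Its call with no recovery was lost under the median-ratio and the upper-quartile scaling and with a pseudocount of 10, where 9 of 10 members passed. Rgs5 encodes a regulator of G protein signalling that marks pericytes, on the plus strand of chr1:169655501-169695813. It read 32.9 CPM and 200.2 CPM with no recovery and 12.4 CPM and 195 CPM after 7 days. The ratio was 6.08 (5.61 to 6.59) before recovery and 15.8 (13.9 to 18.0) at 7 days.

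The quiescent members were higher under the OGT-KO label as well. Lrat encodes lecithin retinol acyltransferase, the enzyme that esterifies retinol for storage, on the minus strand of chr3:82892579-82903973. It read 10.6 CPM and 38.4 CPM with no recovery and 6.46 CPM and 38.6 CPM after 7 days, 3.61-fold (3.11 to 4.19) and 5.98-fold (4.97 to 7.25) higher under the OGT-KO label. Reln encodes reelin, a secreted glycoprotein that stellate cells make in liver, on the minus strand of chr5:21884454-22344702. It read 33.9 CPM and 124 CPM with no recovery and 23.7 CPM and 150.0 CPM after 7 days, 3.67-fold (3.38 to 3.99) and 6.34-fold (5.75 to 6.99) higher. The ratio of both genes to each other stood at 0.314 and 0.273 Lrat reads per Reln read in the libraries labelled control and at 0.308 and 0.258 in those labelled OGT-KO. The change between labels was within the counting interval at both times (log2 -0.03, -0.27 to 0.22, and -0.08, -0.38 to 0.22). Between times under the OGT-KO label it was beyond it (log2 -0.26, -0.41 to -0.11).

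**Figure D2:**
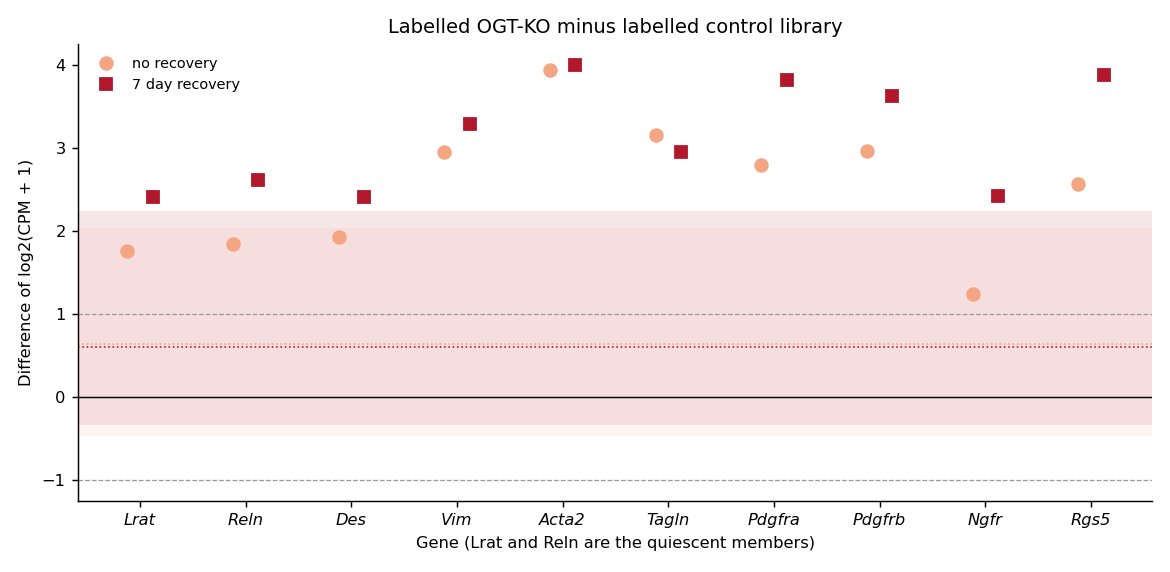
Difference of log2(CPM + 1) between the library labelled OGT-KO and the library labelled control for each member, with no recovery (circles) and after 7 day recovery (squares). Dotted lines mark the median of all 12989 genes (0.64 and 0.61), shaded bands their 10th to 90th percentiles (-0.47 to 2.03 and -0.33 to 2.24) and dashed lines a 2-fold difference; Lrat, Reln, Des and Ngfr lie inside the band with no recovery and all members lie above it after 7 days.

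Activated members were set against quiescent ones to ask whether the balance of their reads differed between libraries. This is a balance between 2 groups of genes, and whether it follows the state of the cells was not tested. The median label difference was 2.88 for the 8 activated and 1.80 for the 2 quiescent members with no recovery, and 3.46 against 2.51 after 7 days. The groups were not separate, since Ngfr (1.24) lay below both Lrat (1.76) and Reln (1.85) with no recovery, and after 7 days Des (2.41) and Ngfr (2.42) lay below Reln (2.61) and beside Lrat (2.41). Within a library, which no scaling can alter, the reads of the 8 activated members per read of the 2 quiescent ones numbered 2.13 (1.97 to 2.30) and 1.92 (1.73 to 2.12) at the 2 times in the libraries labelled control. In those labelled OGT-KO they numbered 4.41 (4.26 to 4.57) and 3.73 (3.61 to 3.86). The ratio was 2.07-fold higher under the OGT-KO label with no recovery and 1.95-fold higher after 7 days. With Acta2, Tagln, Vim and Ngfr alone as the activated members, it was 0.944 and 0.960 in the libraries labelled control. In those labelled OGT-KO it was then 2.29 and 1.60, which is 2.42-fold and 1.66-fold higher. Acta2 against Lrat alone moved further, from 0.491 and 0.457 in the libraries labelled control to 2.46 and 1.62 in those labelled OGT-KO. These are ratios of reads, not corrected for the length of the transcripts. Rgs5, which pericytes share, was the largest part of the activated sum under the OGT-KO label. It made up 200.2 CPM of 718 CPM with no recovery and 195 CPM of 705 CPM after 7 days.

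**Figure D3:**
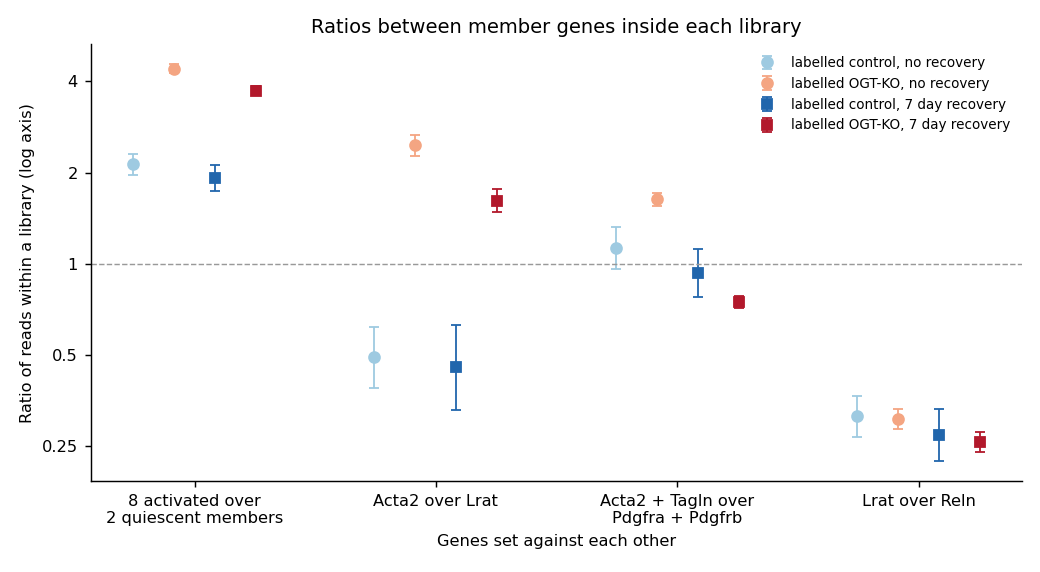
Ratios of reads between members inside each library (log axis) with 95% exact counting intervals. The activated over quiescent ratio is 2.13 and 1.92 in the libraries labelled control and 4.41 and 3.73 in those labelled OGT-KO, while the Lrat over Reln ratio runs from 0.258 to 0.314.

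Levels per kilobase of the principal transcript (CPM per kb) gave the order of the members within a library. Vim led in all 4 libraries, at 8.71 and 6.00 CPM per kb in those labelled control and 70.7 and 63.0 CPM per kb in those labelled OGT-KO. Its interval overlapped that of the gene next to it in each library but the 7 day one labelled OGT-KO. Pdgfra was last in 3 libraries, at 0.517 and 0.420 CPM per kb under the control label and 4.49 CPM per kb under the OGT-KO label with no recovery, where it could not be told apart from Ngfr (4.99 CPM per kb). In the 7 day library labelled OGT-KO, Lrat was last, at 7.22 CPM per kb, and the intervals of neighbours from Des (8.46 CPM per kb) through Pdgfra and Ngfr to Lrat overlapped. In both libraries labelled control the per-kb levels of Acta2 (2.57 and 1.45 CPM per kb) overlapped those of Pdgfrb next to it in order. In both labelled OGT-KO, Acta2 (46.4 and 30.7 CPM per kb) stood above Pdgfrb (17.2 and 24.1 CPM per kb) by more than counting error.

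Recovery was read as the 7 day library less the library with no recovery under the same label. These comparisons reuse the same 4 libraries as those between labels. In libraries labelled control all 10 members lay below 0, against 59.2% of all genes. Only Rgs5 was at least 2-fold lower (2.66-fold, 2.30 to 3.09), which 1.02% of all genes were, and no member was 2-fold higher, against 0.239%. Rgs5 was no longer past 2-fold with a pseudocount of 10. The other members ran from -0.65 for Acta2 and -0.64 for Lrat to -0.17 for Pdgfrb on the log2 scale. Counting intervals of the ratio included no change for Des, Pdgfra and Pdgfrb.

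In libraries labelled OGT-KO, 6 members lay above 0 and 4 below after 7 days, where 47.4% of all genes lay above. None passed 2-fold in either direction, against 1.31% of all genes higher and 0.708% lower. Acta2 fell by 0.59 and Tagln by 0.51 on the log2 scale between the libraries, and their CPM ratios were 0.662 (0.618 to 0.708) and 0.701 (0.658 to 0.746). The PDGF receptors and Ngfr differed the other way, with Pdgfra at 1.77-fold (1.61 to 1.95), Ngfr at 1.54-fold (1.36 to 1.76) and Pdgfrb at 1.40-fold (1.32 to 1.48). Reln was 1.21-fold higher, Vim read 0.891 of its earlier level, and the counting intervals of Des, Lrat and Rgs5 included no change. Rgs5, at -0.03, turned above 0 under the median-ratio and upper-quartile scaling, where 7 members lay above 0.

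**Figure D4:**
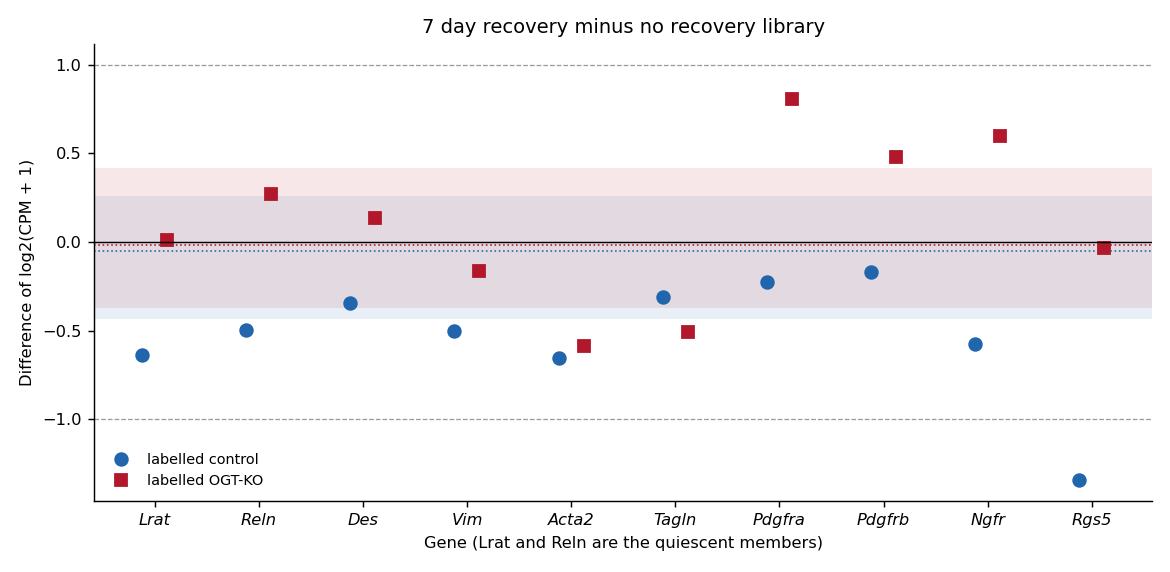
Difference of log2(CPM + 1) between the 7 day and the no recovery library for each member, in libraries labelled control (circles) and labelled OGT-KO (squares). Dotted lines mark the median of all genes (-0.05 and -0.02), shaded bands their 10th to 90th percentiles and dashed lines a 2-fold difference; every control circle is below 0, while the OGT-KO squares run from -0.59 for Acta2 to 0.80 for Pdgfra.

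Acta2 and Tagln on one side and the PDGF receptors on the other thus moved apart within the libraries labelled OGT-KO. The ratio of Acta2 and Tagln reads to Pdgfra and Pdgfrb reads, a pairing chosen after the values were seen, was 1.63 (1.56 to 1.71) before and 0.748 (0.714 to 0.784) at 7 days of recovery, 2.18-fold lower. In those labelled control it was 1.13 (0.964 to 1.32) and 0.935 (0.779 to 1.12), and these intervals overlapped. For Rgs5 against Pdgfrb the ratio was 2.99 and 1.28 in the libraries labelled control and 2.15 and 1.50 in those labelled OGT-KO.

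The label difference after 7 days exceeded that with no recovery for 9 members, against 55.7% of all genes. It was larger by at least 1 on the log2 scale, a 2-fold step, for Rgs5 (1.31), Ngfr (1.17) and Pdgfra (1.03), which 2.63% of all genes were, and no member was smaller by that much, against 0.924%. Tagln alone was smaller (-0.19), and Acta2 was nearly level (0.07). With a pseudocount of 10 no member passed this step, Rgs5, Pdgfra and Ngfr read 0.91, 0.73 and 0.66, and Acta2 read -0.29. Des, Pdgfra, Pdgfrb, Lrat, Reln and Ngfr were lower after recovery under the control label and higher under the OGT-KO label, a pattern that 25.6% of all genes had. None of these differences could be tested with 1 library per condition.

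Other genes of the same cell states were counted from lists chosen with earlier results of these data known. A gene that passes the filter only where it is high has to differ, so the counts of lists below keep to genes that averaged 1 CPM or more in the libraries labelled control too, a choice made after the values were seen. Of the 11602 such genes, 27.2% were at least 2-fold higher under the OGT-KO label with no recovery and 26.1% after 7 days, and all 10 members were among them. Of 15 other activated myofibroblast genes, mostly of collagens and matrix proteins, 15 were at least 2-fold higher at both times. The median over the 17 that passed the first filter was 4.02 and 4.09. Col1a1, which encodes the main fibrillar collagen chain, read 20.98 CPM and 875 CPM with no recovery and 16.5 CPM and 1192 CPM after 7 days. The smallest difference was that of Tpm2, a tropomyosin, at 1.68 and 1.97 on the log2 scale. The summed level of the list, genes left out of the count included, was 203 CPM and 140 CPM in the libraries labelled control. In those labelled OGT-KO it was 4107 CPM and 5049 CPM.

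Of 15 other genes listed as quiescent stellate genes, 9 were at least 2-fold higher under the OGT-KO label with no recovery and 10 after 7 days, with a median of 1.36 and 1.39. Whether each of them is confined to the quiescent state was not tested. Adamtsl2, Nes and Cygb led, and Cygb, a globin of stellate cells, read 10.02 CPM and 85.1 CPM with no recovery and 9.11 CPM and 104 CPM after 7 days. Steap4, Vipr1 and Angptl6 were at the other end. Steap4 read 161 CPM and 235 CPM with no recovery, and 406 CPM under the control label against 206 CPM under the OGT-KO label after 7 days. Under median-ratio scaling 6 and 7 of the 15 passed 2-fold, where 17.3% and 20.01% of all 12989 genes did.

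Partners of the members were read next. Of the 4 PDGF ligands, the 3 that passed the filter in the libraries labelled control were at least 2-fold higher under the OGT-KO label at both times. Pdgfb, the ligand of Pdgfrb, read 1.27 CPM and 23.6 CPM with no recovery and 0.801 CPM and 20.4 CPM after 7 days, and Pdgfd, which binds the same receptor, 0.753 CPM and 12.1 CPM and then 1.001 CPM and 13.4 CPM. Pdgfa was 4.68-fold and 4.24-fold higher and Pdgfc 5.94-fold and 5.08-fold. Neither the ligands nor their receptors differed 2-fold between times under either label.

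Among the partners of Ngfr, Ntrk2, a neurotrophin receptor with a kinase, read 1.93 CPM and 40.5 CPM with no recovery and 1.40 CPM and 64.3 CPM after 7 days. Sort1, a sorting receptor that pairs with Ngfr, read 39.1 CPM and 57.3 CPM and then 27.0 CPM and 72.2 CPM, and Bdnf, a neurotrophin, 1.22 CPM and 2.58 CPM and then 1.001 CPM and 1.99 CPM. Ntrk2 was thus at least 2-fold higher on the log2(CPM + 1) scale at both times, Sort1 only after 7 days and Bdnf at neither. All 3 reelin receptors and adaptor passed the filter only through the libraries labelled OGT-KO, so no count of them is given. Vldlr read 0.659 CPM and 11.2 CPM with no recovery and 0.350 CPM and 18.6 CPM after 7 days. Lrp8 and the adaptor Dab1 stayed under 8 CPM in all libraries, with Dab1 at 0 reads under the control label with no recovery.

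Around Lrat, 1 and 2 of 8 retinoid handling genes were at least 2-fold higher, and the median of the 9 that passed the first filter was 0.41 and 0.14, below that of all genes. Aldh1a2, which makes retinoic acid, read 0.235 CPM and 19.5 CPM with no recovery and 0.250 CPM and 16.5 CPM after 7 days. Rbp4, the plasma retinol carrier made by hepatocytes, read 2769.8 CPM and 1632 CPM and then 2596 CPM and 1470 CPM. Around Acta2, 2 of 2 actin paralogs were 2-fold higher at both times. Actg1, a cytoplasmic actin, was 5.81-fold and 7.04-fold higher and Actb, the other cytoplasmic actin, 3.09-fold and 3.10-fold, while Actg2, of enteric smooth muscle and below the filter under the control label, stayed at 3.81 CPM or less. Of the factors that act on the CArG box, Srf read 18.4 CPM and 21.1 CPM with no recovery and 17.7 CPM and 18.7 CPM after 7 days. Its partners Mrtfa and Mrtfb were 2.93-fold and 2.24-fold higher with no recovery and 2.33-fold and 2.92-fold after 7 days, and none of the 3 factors was 2-fold apart under median-ratio scaling.

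Genes of neighbouring cell types were counted in the same way, and their part in the members' values was not tested. Sums here and below are over every listed gene in the table, those left out of the counts by the filter included. Of 3 vascular smooth muscle genes, 2 were at least 2-fold higher under the OGT-KO label at both times, and the 8 genes listed summed to 108 CPM and 93.2 CPM under the control label against 183 CPM and 203 CPM under the OGT-KO label. Most of these sums was Mylk, at 91.0 CPM and 85.9 CPM against 107 CPM and 135 CPM, less than 2-fold apart at both times. Myh11, smooth muscle myosin, read 5.17 CPM and 25.5 CPM with no recovery and 1.65 CPM and 12.9 CPM after 7 days. Of 5 pericyte genes, 4 and 3 were 2-fold higher, with sums of 32.4 CPM and 26.7 CPM against 115 CPM and 91.4 CPM. Of 9 portal fibroblast and mesothelial genes, 7 and 8 were, with sums of 19.9 CPM and 16.9 CPM against 261 CPM and 463 CPM, and Eln, elastin, read 5.88 CPM and 156 CPM and then 3.60 CPM and 351.5 CPM.

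Bile duct markers were 2-fold higher in 4 of 4 genes at both times. Sums over all 6 listed genes, Krt7 and Cldn4 below the filter under the control label included, were 53.7 CPM and 69.9 CPM against 1170 CPM and 1483 CPM. Most of these sums was Spp1, osteopontin, which other cells make too, at 41.0 CPM and 52.1 CPM against 977 CPM and 1245 CPM. Macrophage markers were higher in 4 of 5 at both times (158 CPM and 61.9 CPM against 531 CPM and 425 CPM), and endothelial markers in 4 and 2 of 7 (243 CPM and 165 CPM against 496 CPM and 363 CPM), the latter a share near that of all genes. Under median-ratio scaling 1 and 2 of the 7 endothelial markers passed. Hepatocyte markers went the other way, with 4 of 6 at least 2-fold lower at both times and sums of 76359 CPM and 85331 CPM against 50530 CPM and 61522 CPM. None of the hepatocyte, bile duct, macrophage or endothelial markers was at 0 in any library. Of the genes listed as lymphocyte markers, the filter left only Ptprc, which other leukocytes, macrophages among them, express too. It was 2-fold higher at both times, which does not tell lymphocytes from other leukocytes.

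**Figure D5:**
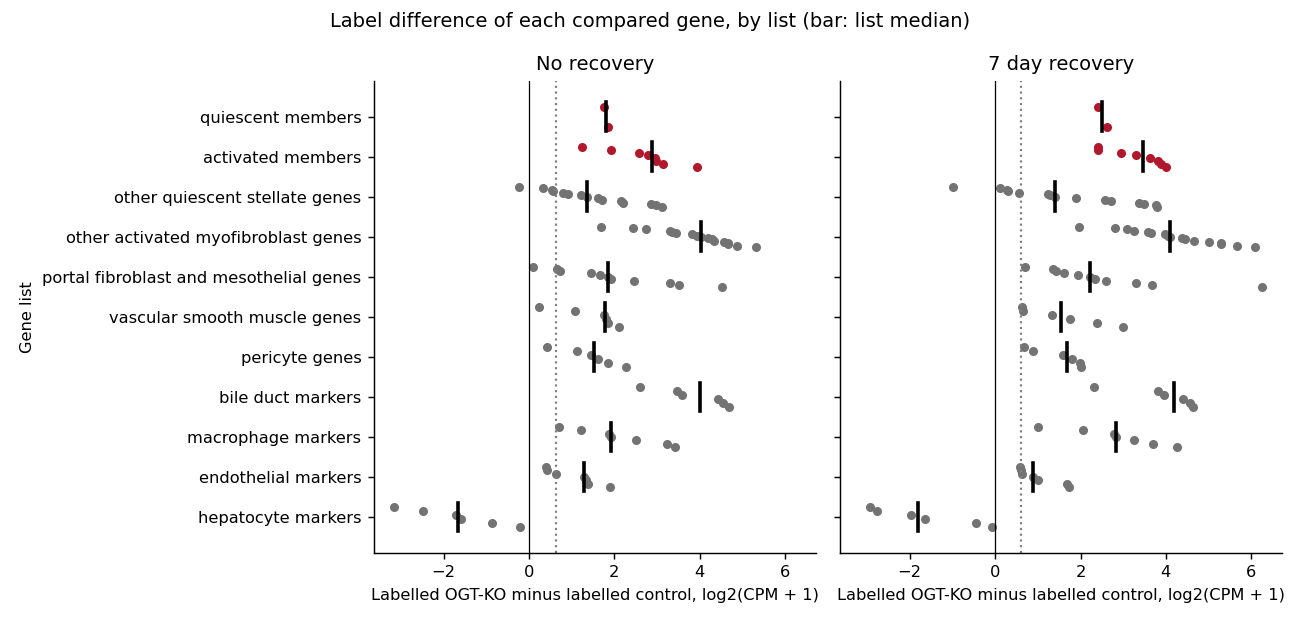
Difference of log2(CPM + 1) between the library labelled OGT-KO and the library labelled control for each compared gene, by list, with no recovery (left) and after 7 day recovery (right). Each point is a gene, the bar is the list median and the dotted line the median of all genes; the other activated myofibroblast genes (medians 4.02 and 4.09) and the bile duct markers (4.005 and 4.18) lie furthest right, and the hepatocyte markers (-1.65 and -1.80) lie left of 0.

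Likeness of pattern was measured as the Euclidean distance between profiles of log2(CPM + 1) centred on each gene's mean over the 4 libraries, among 8962 other genes that averaged 10 CPM or more. The 3 genes nearest to Acta2 were Vcam1, an adhesion molecule, at 0.24, Abcc4, a transporter of organic anions, at 0.26, and Basp1, a membrane protein, at 0.27. Vcam1 read 6.82 CPM, 119 CPM, 4.51 CPM and 96.1 CPM in the order labelled control and OGT-KO with no recovery, then labelled control and OGT-KO after 7 days. Nearest to Lrat were Cyth3 at 0.13, Hdac7, a histone deacetylase, at 0.14 and Tlnrd1 at 0.14. Among members, Des stood at rank 39 and Reln at rank 46 from Lrat, while Vim stood at rank 120 and Tagln at rank 135 from Acta2. With 4 libraries these distances describe how alike the differences between libraries were in size and direction, and say nothing further.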

How the data were processed

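Total RNA was extracted with TRIzol from liver and made into mRNA-seq libraries, 1 per condition. The authors deposited 1 table of CPM for 13903 genes. It was named for DESeq2 normalization, but each column sums to 1000000 and 100% of values are whole multiples of 1 read within 0.01 read, so whole reads were recovered. The submitters' processing notes name STAR, DESeq2 and GRCm39. The counter, annotation, strand setting and row filter are not given in the sources used here. Coordinates are those of GENCODE M21 (GRCm38), which held 13893 of the gene identifiers.

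Differences are of log2(CPM + 1), over genes averaging 1 CPM or more, and a 2-fold difference was the call. The design had assumed values divided by size factors. Intervals of ratios are exact binomial ones at 95% and, like the floor of 3 reads, cover counting error only. As an alternative, an exact binomial test of recovered reads, adjusted by Benjamini-Hochberg, compared the libraries and not the conditions. It called 11450 and 11276 genes between labels and 4116 and 6365 between times, among them every gene at 2-fold. Genes named are the members, Ogt, at most the 3 highest and 3 lowest of each list by mean label difference, all PDGF ligands and actin paralogs, and the 3 nearest in pattern to Acta2 and Lrat. The members and lists were chosen with earlier results of these data known. Some listed genes, and with them the counts of their lists, are not reported here. Steps were tested on simulated reads. Python 3.11.15, numpy 2.4.6, pandas 2.3.3 and scipy 1.17.1 were used.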

Additional observations from a re-analysis of the deposited data

Results flagged for a closer look

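Of the 10 members, 6 were lower after 7 day recovery in the library labelled control and higher in the library labelled OGT-KO. The difference between both changes, on the log2(CPM + 1) scale, was 1.17 for Ngfr, 1.03 for Pdgfra, 0.77 for Reln, 0.65 for Pdgfrb, 0.65 for Lrat and 0.48 for Des. With 1 library per condition the difference was not tested. For Lrat, the change under the OGT-KO label was 0.01.

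Ogt was lower under the OGT-KO label with no recovery (-0.22) and higher after 7 day recovery (0.47), a difference of 0.70 on the log2 scale. This difference was not tested. Under median-ratio scaling both label differences of Ogt were below 0, at -0.93 and -0.20.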

How the results depend on the processing

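Counts of members past 2-fold stayed within 1.5 times the reported count in 69 of 72 recomputations. The exceptions were a 4-fold threshold, which left 6 members higher with no recovery and 0 lower after recovery under the control label, and a pseudocount of 10, which also left 0 of the latter. All 10 members averaged 10 CPM or more, so recomputations that changed only the filter could not alter these counts. The 69 also include counts that were 0 in every setting. The median difference of activated less quiescent members was 1.07 and 0.95 between labels. It was 0.87 and 0.48 with a pseudocount of 10 and 1.25 and 0.61 with Acta2, Tagln, Vim and Ngfr as the activated members. Between times it was 0.14 under the control label, and -0.15 from summed CPM. Under the OGT-KO label it was -0.09, and -0.48 with those 4 genes, -0.24 from summed CPM, -0.22 against Reln alone and 0.0404 against Lrat alone, so that neither direction between times held under all of these. Of 220 recomputed differences of single genes, 81 moved beyond their counting interval and none of those past 2-fold reversed. Of 72 recomputed counts over all genes, 30 moved beyond 1.5 times. The cause was not tested.

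No paired analysis was possible because each condition has 1 library and the labels give no replicate numbers. The 4 libraries were pools, so the spread between mice is unknown, and counting error alone widened the intervals of weakly expressed members, such as Des and Pdgfra under the control label.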
